A study of Bos taurus with 24 samples.

Results

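Cumulus cells of bovine early antral follicles (early_CC, 5 libraries) were compared with granulosa cells of secondary follicles (secondary_GC, 4 libraries), the stage before the fluid-filled antrum forms. Both groups were taken by their labels, and they make up 9 of the 24 RNA-seq libraries of a study of how granulosa cells grow transzonal projections, the thin processes that reach the oocyte. The other 15 libraries, of mural granulosa cells from early antral follicles (early_MGC) and of cumulus and mural cells from late antral follicles (late_CC and late_MGC, 5 each), shared 1 statistical fit with them. RNA was amplified with a low-input cDNA kit and made into transposase-based libraries. No treatment, genotype, age or animal is given in the labels for any group. Nothing there says whether replicates were separate animals, so p-values describe the spread between these samples, which may be technical. All levels are CPM, counts scaled to a library total of 1000000, and all differences are log2 fold changes of early_CC over secondary_GC with their standard error (SE).

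In a secondary follicle the oocyte is enclosed by several layers of granulosa cells that have not yet divided into compartments. When the antrum forms, the cells left around the oocyte become cumulus cells, which keep their projections and gap junctions with it, and those lining the wall become mural cells. Oocyte factors of the TGF-beta superfamily, chiefly GDF9 and BMP15, act on the cumulus, while follicle-stimulating hormone, activins, inhibins, follistatin and locally made oestradiol shape the growth of both compartments.

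The titles number the secondary_GC samples 1 to 4 while the columns of the count table carry other numbers, so secondary_GC 1 to 4 here name the 4 columns in table order, not titled samples. Total counts ran from 10001810 to 30172169 in secondary_GC and from 19596862 to 31762400 in early_CC. Pearson correlations of log2 CPM over the genes tested were 0.920 to 0.961 between secondary_GC libraries, 0.957 to 0.972 between early_CC libraries and 0.894 to 0.960 across the groups. Counts from the mitochondrial genome made up 7.32%, 13.97%, 19.3% and 5.15% of secondary_GC 1 to 4 and 5.45% to 7.24% of early_CC. Secondary_GC 1, 2 and 3 lay above all early_CC libraries, the first of them narrowly, and secondary_GC 4 below all of them. The 15 granulosa markers summed to 3733 to 5359 CPM in secondary_GC and 7713 to 9297 CPM in early_CC. FST, INHA and HSD17B1, which are on that list and are described below, held most of the difference. FSHR, the receptor for follicle-stimulating hormone, stood at 258 to 392 and 254 to 424 CPM. FOXL2, a transcription factor that maintains granulosa identity, was low in both, at 0.921 to 3.25 and 0.517 to 3.37 CPM, and reached no more than 4.29 CPM in late_CC and 0.926 CPM in early_MGC. Oocyte markers summed to 26.6 to 37.3 and 20.02 to 43.3 CPM, with BMP15, DDX4, TCL1A, FIGLA and KPNA7 at 0 in all 9 libraries. Theca and stroma markers summed to 333 to 530 and 238 to 806 CPM, with CYP17A1, the defining steroid enzyme of theca, at 0 in all 9. Endothelial markers summed to 28.6 to 37.4 and 11.3 to 26.9 CPM, with CDH5, EMCN and ESAM at 0. Blood cell markers summed to 2.07 to 7.72 and 1.38 to 2.65 CPM, with HBB and S100A9 at 0. Markers of the ovarian surface epithelium summed to 429 to 634 and 357 to 653 CPM, with KRT7 at 0. The part of these other cells and of the mitochondrial share in the results below was not tested. In bulk libraries fewer cells of a type and less RNA per cell cannot be told apart.

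Outside the 2 groups, early_MGC 4, late_CC 3 and late_MGC 3 stood apart from their own groups. Their mean correlations to those groups were 0.920, 0.914 and 0.870, against 0.942 to 0.955 for the other libraries. They enter the fit through the filter on low counts, the estimate of spread and the adjustment of p-values. Within secondary_GC the mean correlations were 0.922 to 0.942, the lowest for secondary_GC 2. On the second principal component it also lay away from its own group (-61.2, against 26.4 to 50.4 for the other 3). Early_CC 3 lay on the same side, at -43.8.

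**Figure D1:**
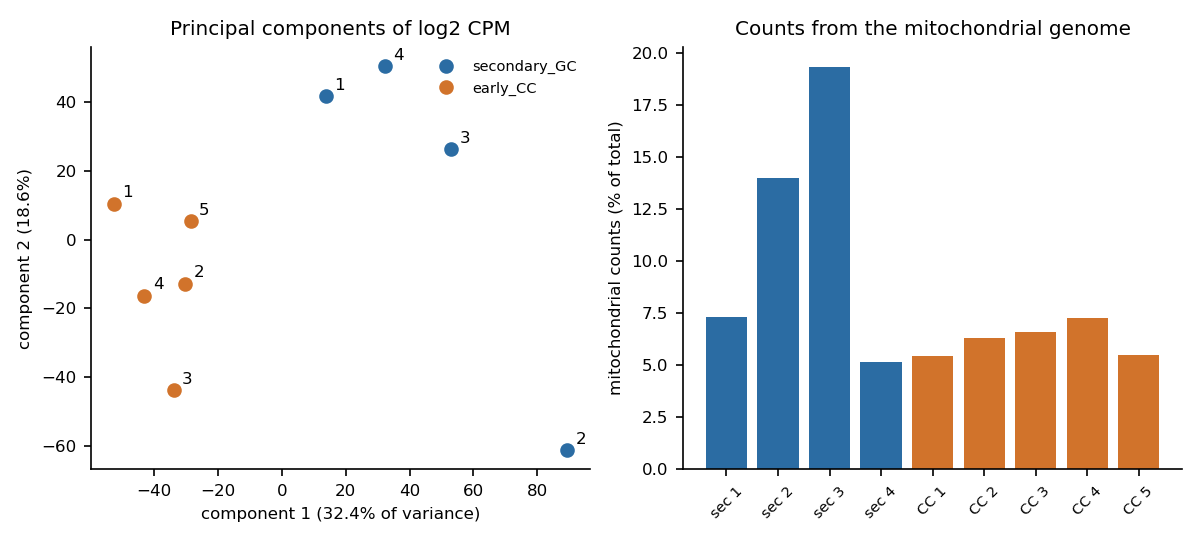
Left, the 9 libraries on the first 2 principal components of log2 CPM (component 1 holds 32.4% and component 2 18.6% of the variance), each point labelled with its replicate number. Right, the percentage of each library's counts that came from the mitochondrial genome; secondary_GC 2 and 3 stand at 13.97% and 19.3%, and the early_CC libraries at 5.45% to 7.24%.

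Of 14298 genes tested, 285 (1.99%) passed edgeR's quasi-likelihood test at a Benjamini-Hochberg adjusted p under 0.05, 135 higher (0.944%) and 150 lower (1.05%) in early_CC. At least 2-fold changes numbered 99 among the rises and 140 among the falls. Genes that rose went from a median of 9.96 to 23.8 CPM, and genes that fell from 16.7 to 3.76 CPM. The CPM of the 9 libraries did not overlap between the groups for 263 of the 285, against 1476 (10.3%) of all genes tested. In every fit that left out 1 of the 9 libraries 98 of the 285 were called, 47 higher and 51 lower. The count of calls was lowest without secondary_GC 2, at 150, and highest without secondary_GC 1, at 358. Secondary_GC 2 and 3, the libraries of high mitochondrial share, were left out together in a fit chosen after the data were seen, and it called 51 genes. With the 9 libraries fitted alone, so that only their own spread counted, 964 of 13398 genes (7.2%) were called, 383 higher (2.86%) and 581 lower (4.34%). Of these, 262 were also called with all 24 libraries. Without the 3 libraries that stood apart, the remaining 21 gave 1304 calls of 14179 (9.2%), 629 higher (4.44%) and 675 lower (4.76%). Values from these are given below as the 9-library fit and the 21-library fit, where they call a gene that the fit of all 24 libraries does not. Genes given below as called in the 9-library fit were called in the 21-library fit too, except EGR1, ATF3 and LDHA. Rose and fell are written only of genes called with all 24. Counts of called list members below are to be read beside these shares of all genes, and the lists were chosen with earlier results of these data known.

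**Figure D2:**
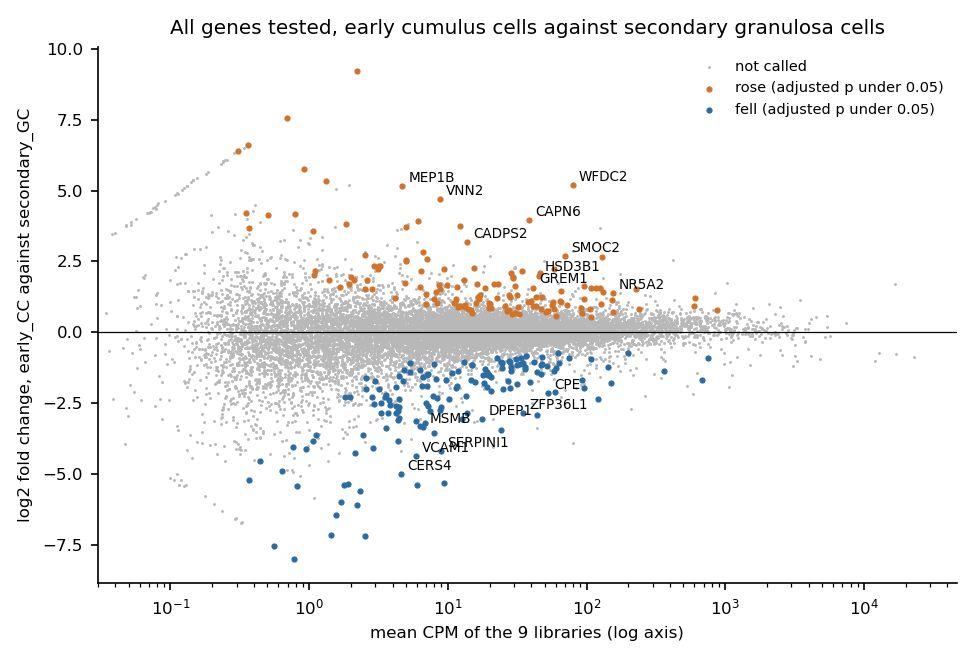
Log2 fold change of early_CC over secondary_GC (vertical axis) against mean CPM of the 9 libraries (horizontal log axis) for the 14298 genes tested. Orange points are the 135 genes that rose, blue points the 150 that fell, and labels mark genes named in the text. The straight rows of grey points at low CPM are genes with no count in one of the groups.

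Among secreted antagonists of the TGF-beta superfamily, GREM1, which binds bone morphogenetic proteins and is a known target of oocyte factors in cumulus cells, rose (ENSBTAG00000050495, chromosome 10, 29964364 to 29978686, reverse strand). Coordinates here and below are those of the ARS-UCD1.2 assembly and span the whole gene, whose exons were counted. Its levels were 21.9, 16.6, 22.5 and 19.1 CPM in secondary_GC 1 to 4 and 73.0, 57.6, 53.6, 44.6 and 63.9 CPM in early_CC 1 to 5. Every early_CC library lay at least 2-fold above the highest secondary_GC library except early_CC 4. The log2 fold change was 1.58 ± 0.25, adjusted p = 0.00110. FST, the activin-binding protein follistatin, was far more abundant, with 2199.6, 1827, 1959 and 2451 CPM in secondary_GC and 4701, 4806, 4541, 4692 and 3849 CPM in early_CC. These groups did not overlap either, yet FST was not called with all 24 libraries (1.14 ± 0.59, adjusted p = 0.349), and was called in the 9-library fit (1.09 ± 0.13, adjusted p = 4.5e-04) and the 21-library fit (adjusted p = 3.4e-04). BAMBI, a decoy receptor that dampens the same pathway, was at 43.3 to 77.4 and 22.8 to 29.2 CPM and likewise called, as lower, in the 9-library fit (-1.12 ± 0.18, adjusted p = 0.00303) and the 21-library fit (adjusted p = 0.00201) only.

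Of the ligands of this superfamily, INHBA, the beta subunit of activin A and inhibin A, had 61.4, 88.0, 71.3 and 38.0 CPM in secondary_GC and 303, 293, 229.9, 316 and 163 CPM in early_CC. The lowest early_CC library, early_CC 5, was above all 4 secondary_GC libraries. The log2 fold change was 2.05 ± 0.80, adjusted p = 0.189 with all 24 libraries and 1.998 ± 0.27, adjusted p = 8.9e-04 in the 9-library fit, and the 21-library fit called it as well (adjusted p = 0.00178). The name INHBA rests on a position match in which both gene spans shared 0.56 of their union. INHA, the inhibin alpha subunit, was at 507 to 1163 and 1228 to 1409 CPM, again without overlap, and passed the test in the 21-library fit (0.64 ± 0.20, adjusted p = 0.0460) but neither with all 24 libraries (0.64 ± 0.60, adjusted p = 0.655) nor with 9 (0.60 ± 0.18, adjusted p = 0.0605). AMH, a granulosa hormone that restrains follicle recruitment, overlapped between groups (125 to 367 and 256 to 472 CPM; 0.52 ± 0.61, adjusted p = 0.743). Over the whole set of BMP, GDF and activin genes, 1 of 35 tested members rose, none fell, and the median log2 fold change was 0.17, against 0.014 for all genes tested. None of 9 receptors and none of 6 SMAD transducers was called.

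NR5A2 and HSD3B1 rose among the genes of steroid synthesis and its control, and HSD17B1 and CYP19A1 lay higher without being called with all 24 libraries. NR5A2, the nuclear receptor LRH-1 that drives steroid enzyme genes in granulosa cells (ENSBTAG00000009265, chromosome 16, 78828931 to 78957232, forward strand), had 54.4, 145, 70.3 and 60.2 CPM in secondary_GC and 174, 185, 289.8, 255 and 159 CPM in early_CC. Secondary_GC 2 lay close under the lowest early_CC library and the other 3 well under it, and the gene rose by 1.398 ± 0.30, adjusted p = 0.0123. HSD3B1, the 3-beta-hydroxysteroid dehydrogenase that yields progesterone (ENSBTAG00000006769, chromosome 3, 23706733 to 23717051, reverse strand), went from 27.4, 16.4, 7.37 and 19.1 CPM to 69.4, 45.3, 46.3, 128 and 48.4 CPM and rose by 2.004 ± 0.49, adjusted p = 0.0321. Its groups did not overlap, and early_CC 4 was the highest of its group. HSD17B1, which converts oestrone to oestradiol, stood at 587, 412, 248 and 595 CPM in secondary_GC and 1203, 1539, 1878, 1489.8 and 1337 CPM in early_CC, without overlap. It was not called with all 24 libraries (1.74 ± 0.74, adjusted p = 0.237) and was called in the 9-library fit (1.70 ± 0.22, adjusted p = 8.0e-04) and the 21-library fit (adjusted p = 7.4e-04). CYP19A1, the aromatase that makes oestrogens from androgens, was lower in abundance, at 5.17 to 8.80 and 8.88 to 14.7 CPM, without overlap. It was called in the 21-library fit (0.90 ± 0.23, adjusted p = 0.0140) and not with all 24 (0.89 ± 0.70, adjusted p = 0.580) or with 9 (0.85 ± 0.25, adjusted p = 0.0579). CYP11A1, which starts steroid synthesis from cholesterol, overlapped at 31.2 to 94.4 and 37.6 to 87.3 CPM. STAR, which carries cholesterol to it, did so at 2.48 to 3.95 and 1.99 to 2.95 CPM. HSD3B1 was the 1 rise among 12 tested steroid genes, and none of them fell. NR5A2 is counted in the list of granulosa and cumulus transcription factors, where 1 of 22 tested members rose and none fell. The median log2 fold change of that list was -0.24, with 14 of 22 below 0. Single libraries ended 2 of these calls: NR5A2 was not called without secondary_GC 4 (0.0614), nor HSD3B1 without secondary_GC 2, 3 or 4 or early_CC 1 or 4 (0.0621 to 0.104), where the brackets give the adjusted p.

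**Figure D3:**
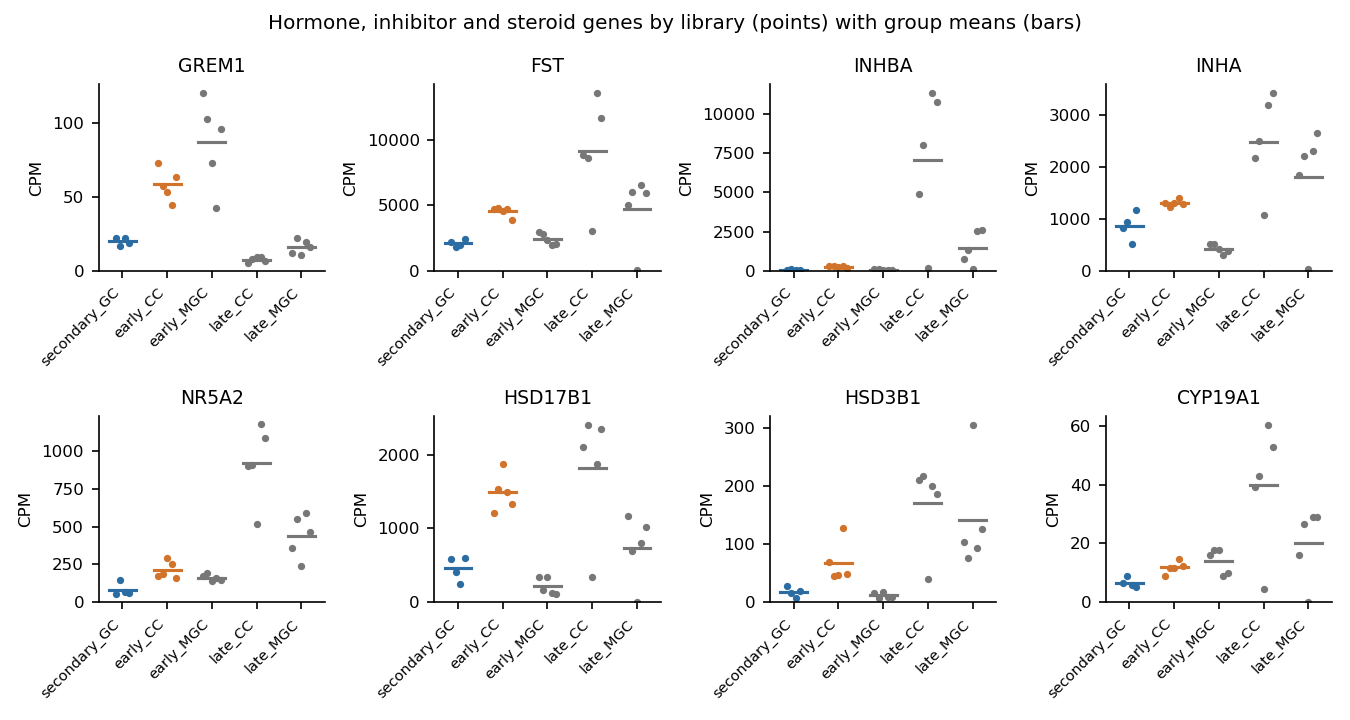
CPM of 8 hormone, antagonist and steroid genes in the libraries of all 5 groups (points) with group means (bars), on linear axes from 0. GREM1, FST, INHBA, INHA, NR5A2, HSD17B1, HSD3B1 and CYP19A1 each lie higher in all 5 early_CC libraries than in all 4 secondary_GC libraries. Only GREM1, NR5A2 and HSD3B1 were called with all 24 libraries. The 8 genes were picked with earlier results of these data known. AMH, CYP11A1 and STAR, which overlap, and BAMBI, which is lower, are not shown. Of all 14298 genes tested, 718 lay higher in early_CC without overlap.

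The largest rises and falls were taken only from genes whose groups do not overlap, so that separation was fixed by the choice. Among the 15 largest rises were 4 members of the protease and inhibitor list, genes of matrix, secretion and glycosylation, and 3 transporters or channels. WFDC2, a small secreted protein of the whey acidic protease-inhibitor family (ENSBTAG00000013928, chromosome 13, 74360635 to 74367977, forward strand), had 4.34, 1.0998, 4.39 and 5.80 CPM in secondary_GC and 237, 67.2, 312, 44.0 and 36.6 CPM in early_CC. It rose by 5.19 ± 1.15, adjusted p = 0.0204. The early_CC libraries differed widely among themselves, with early_CC 1 and 3 the highest. MEP1B, the beta subunit of the membrane metalloprotease meprin (ENSBTAG00000020391, chromosome 24, 24983757 to 25019913, reverse strand), went from 0.4935, 0.400, 0.142 and 0 CPM to 10.8, 5.77, 8.77, 10.6 and 5.18 CPM. The rise was 5.17 ± 1.03, adjusted p = 0.00935. It was near the limit of detection in secondary_GC, where 3 counts over the group amount to 0.0402 CPM, and was present in every early_CC library. CAPN6, a calpain without protease activity that binds microtubules (ENSBTAG00000000828, chromosome X, 59413796 to 59439573, reverse strand), went from 11.2, 2.60, 1.13 and 2.75 CPM to 111, 39.2, 63.6, 63.3 and 52.2 CPM. Its log2 fold change was 3.96 ± 0.66, adjusted p = 0.00240. In secondary_GC, library 1 was well above the other 3. SMOC2, a secreted calcium-binding matrix protein (ENSBTAG00000013176, chromosome 9, 102645195 to 102803012, forward strand), had 14.9, 26.2, 21.7 and 9.05 CPM and 106, 59.0, 115, 227 and 50.4 CPM, with early_CC 4 the highest library. It rose by 2.68 ± 0.42, adjusted p = 0.00116. CADPS2, which primes dense-core vesicles for release (ENSBTAG00000005110, chromosome 4, 86734600 to 87314496, reverse strand), had 3.40, 3.90, 1.91 and 1.26 CPM and 33.2, 10.6, 28.2, 26.1 and 14.9 CPM. Its rise was 3.20 ± 0.50, adjusted p = 0.00120. GALNT13, an enzyme that starts O-linked glycan chains (ENSBTAG00000005562, chromosome 2, 41676135 to 42259624, reverse strand), was the most evenly raised of these, with 21.4, 11.3, 24.9 and 20.6 CPM in secondary_GC and 117, 86.2, 82.9, 78.4 and 85.2 CPM in early_CC. Its log2 fold change was 2.23 ± 0.36, adjusted p = 0.00132.

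The transporters and channels among the 15 largest rises were SLC22A7, an organic anion transporter (0.4935 to 0.7999 CPM in secondary_GC and 3.09 to 21.7 CPM in early_CC; 3.72 ± 0.71, adjusted p = 0.00616), and 2 others. These were RHBG, which carries ammonium (2.15 ± 0.57, adjusted p = 0.0466), and KCNJ8, a subunit of ATP-sensitive potassium channels (2.56 ± 0.65, adjusted p = 0.0377). The enzymes were VNN2, a pantetheinase (0 to 0.994 CPM in secondary_GC and 6.17 to 42.7 CPM in early_CC; 4.71 ± 0.80, adjusted p = 0.00283), and a pair at lower fold. This pair was the lysosomal protease CTSL (2.58 ± 0.63, adjusted p = 0.0320) and EHHADH of peroxisomal fatty acid oxidation (2.24 ± 0.50, adjusted p = 0.0171). CPXM1, a carboxypeptidase relative (2.83 ± 0.58, adjusted p = 0.0104), the homeobox factor MEIS2 (2.33 ± 0.62, adjusted p = 0.0476) and the membrane protein TMEM156 (3.75 ± 0.88, adjusted p = 0.0263) made up the rest. The symbol of TMEM156 rests on a position match of 0.65 of the union of both spans. Cathepsins form a gene family, and reads shared with a relative of CTSL could not be separated.

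Of these 15 rises, 8 were called whichever library was left out, namely MEP1B, VNN2, CAPN6, SLC22A7, CADPS2, CPXM1, SMOC2 and GALNT13. The size of 4 of these rested in part on 1 library. Without early_CC 1, the highest, VNN2 rose by 3.83, and without early_CC 3 SLC22A7 rose by 2.99. Without secondary_GC 1 CAPN6 rose by 4.95, and MEP1B by 5.98 without secondary_GC 1 and 4.58 without secondary_GC 4. The other 7 lost their call on leaving out single libraries, given here with adjusted p. WFDC2 was lost without secondary_GC 2, 3 or 4 (0.0552 to 0.0795) and TMEM156 without secondary_GC 1, 2 or 3 or early_CC 1 or 4 (0.0509 to 0.0863). The same held for CTSL without secondary_GC 1, 2, 3 or 4 or early_CC 1 or 4 (0.0545 to 0.104) and for KCNJ8 without secondary_GC 2, 3 or 4 or early_CC 1, 3 or 4 (0.0597 to 0.116). MEIS2 was lost without secondary_GC 2, 3 or 4 or early_CC 1, 2, 3, 4 or 5 (0.0513 to 0.139), EHHADH without secondary_GC 2 or 4 (0.0728 to 0.0788) and RHBG without each of the 9 libraries in turn (0.0617 to 0.142). TMEM156 rose by 4.52 without secondary_GC 4. Without secondary_GC 2 and 3 together, CADPS2, SMOC2 and GALNT13 were the only calls left among the 15. The log2 fold changes of the 5 lost among the 8 were then 5.30 for MEP1B, 4.19 for VNN2, 3.36 for CAPN6, 3.81 for SLC22A7 and 3.28 for CPXM1 (adjusted p = 0.0717 to 0.138). Limma-voom, with or without library weights, did not call MEP1B or VNN2.

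**Figure D4:**
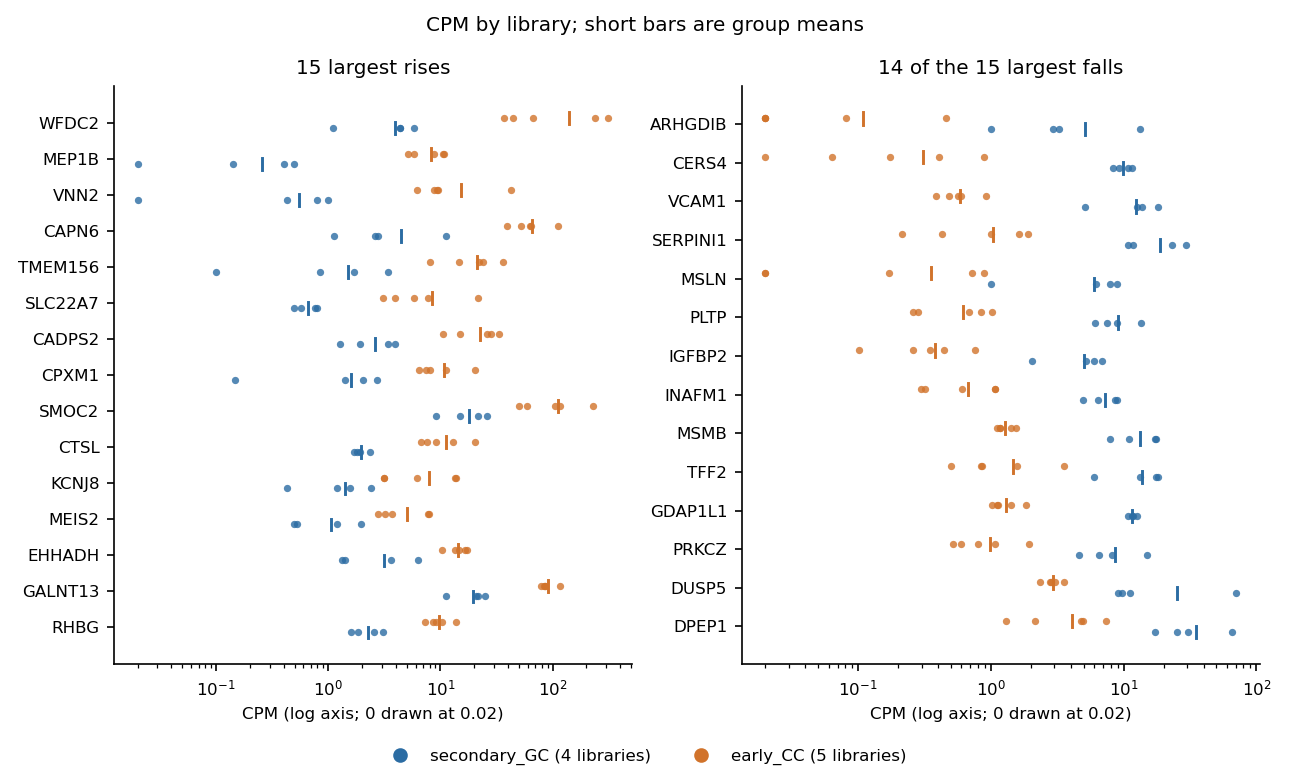
CPM on a log axis of the 15 genes with the largest rises (left) and 14 of the 15 with the largest falls (right) in each of the 4 secondary_GC and 5 early_CC libraries, with short bars at the group means. These genes were chosen for groups that do not overlap. The spread within a group differs widely, from GDAP1L1 (10.7 to 12.6 CPM in secondary_GC) to WFDC2 (36.6 to 312 CPM in early_CC).

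Of the 15 largest falls 14 are described, among them 2 genes of lipid handling and several secreted or membrane proteins. CERS4, a ceramide synthase (ENSBTAG00000003434, chromosome 7, 16897413 to 16933305, forward strand), had 10.8, 8.30, 9.21 and 11.6 CPM in secondary_GC and 0.0630, 0.408, 0, 0.172 and 0.883 CPM in early_CC. A transcript even across secondary_GC was close to the limit of detection in early_CC (-5.01 ± 0.72, adjusted p = 0.00106). PLTP, which transfers phospholipids between lipoproteins (ENSBTAG00000000559, chromosome 13, 74654889 to 74665860, reverse strand), had 6.07, 13.5, 7.44 and 8.98 CPM and 0.283, 1.02, 0.684, 0.259 and 0.843 CPM. It fell by the same test (-3.85 ± 0.75, adjusted p = 0.00673). Both genes were called in every fit that left out 1 library, though PLTP was not without secondary_GC 2 and 3 together (adjusted p = 0.0928). Without early_CC 5 the log2 fold change of CERS4 was -5.92.

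Of the secreted proteins, MSMB fell. It is a small protein known from prostate fluid. MSMB (ENSBTAG00000011660, chromosome 28, 44061316 to 44071826, reverse strand) had 7.85, 17.4, 10.9 and 17.2 CPM and 1.102, 1.17, 1.54, 1.42 and 1.16 CPM. The change was -3.34 ± 0.55, adjusted p = 0.00165. TFF2, a trefoil peptide of mucous surfaces (ENSBTAG00000030814, chromosome 1, 142614729 to 142618268, reverse strand), had 17.4, 5.999, 18.1 and 13.2 CPM and 0.504, 3.57, 1.58, 0.862 and 0.843 CPM. The test gave -3.20 ± 0.63, adjusted p = 0.00673. SERPINI1, the plasminogen-activator inhibitor neuroserpin (ENSBTAG00000012708, chromosome 1, 99660456 to 99743550, reverse strand), had 11.8, 10.8, 23.02 and 29.8 CPM and 1.01, 1.63, 0.428, 0.215 and 1.89 CPM. It gave -4.18 ± 0.68, adjusted p = 0.00160. Of the 3, the groups came closest for TFF2, between early_CC 2 and secondary_GC 2. Without early_CC 2 that gene's log2 fold change was -3.81. VCAM1, an adhesion receptor for integrins (5.13 to 18.3 CPM in secondary_GC and 0.385 to 0.919 CPM in early_CC; -4.37 ± 1.07, adjusted p = 0.0368), fell too. So did MSLN, the surface protein mesothelin (0.9998 to 8.93 and 0 to 0.883 CPM; -4.08 ± 1.04, adjusted p = 0.0376), and DPEP1, a membrane dipeptidase (17.3 to 66.1 and 1.29 to 7.40 CPM; -3.05 ± 0.49, adjusted p = 0.00135). VCAM1 was not called without secondary_GC 2, 3 or 4 or early_CC 1, 2, 3, 4 or 5 (0.0603 to 0.0892). MSLN was not called without secondary_GC 1, 3 or 4 or early_CC 1, 2, 3 or 4 (0.0544 to 0.0933), and its log2 fold change was -4.76 without early_CC 5. MSLN also marks the ovarian surface epithelium, whose summed markers overlapped between the groups as given above. That sum includes WT1, which is also on the granulosa list, and CDH1, described below as higher in early_CC. The part of such cells in this fall was not tested.

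Of the remaining large falls, IGFBP2 is described below with the insulin-like growth factor genes, and the others follow here. GDAP1L1, a relative of the mitochondrial protein GDAP1 (ENSBTAG00000002593, chromosome 13, 72715528 to 72740133, forward strand), had 11.7, 12.6, 10.7 and 11.6 CPM in secondary_GC and 1.42, 1.84, 1.03, 1.12 and 1.12 CPM in early_CC, with little spread in either. This was a log2 fold change of -3.12 ± 0.48, adjusted p = 0.00106. PRKCZ, the atypical protein kinase C of cell polarity complexes, had 6.56, 15.1, 8.15 and 4.64 CPM and 1.07, 1.94, 0.599, 0.517 and 0.803 CPM. The change was -3.10 ± 0.56, adjusted p = 0.00338. ARHGDIB, an inhibitor of small GTPases best known from blood cells, had 2.91, 0.9998, 3.26 and 13.4 CPM and 0, 0.459, 0, 0 and 0.0803 CPM. It fell by the largest fold of these falls (-5.60 ± 1.13, adjusted p = 0.00910). Its log2 fold change was -7.58 without early_CC 2 and -4.50 without secondary_GC 4, the fit in which it was not called (adjusted p = 0.0507). Blood cell markers summed to 2.07 to 7.72 CPM in secondary_GC and 1.38 to 2.65 CPM in early_CC, and their part in this fall was not tested. DUSP5, a phosphatase that inactivates ERK kinases, had 9.77, 11.1, 8.996 and 70.3 CPM and 2.80, 3.57, 2.35, 3.06 and 2.85 CPM. Secondary_GC 4 was far above the rest (-3.05 ± 0.64, adjusted p = 0.0108), and without it the change was -1.74 and not called (adjusted p = 0.148). INAFM1 (-3.37 ± 0.76, adjusted p = 0.0169) was not called without secondary_GC 4 or early_CC 3 or 4 (0.0505 to 0.0535), and its symbol rests on a position match of low overlap (0.52 of the union of both gene spans).

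Proteases and their inhibitors held the most calls of any gene list, 4 higher and 4 lower of 31 tested members, against 0.944% and 1.05% of all genes tested, with a median log2 fold change of -0.58. The list was chosen with earlier results of these data known, and its count depends on how it was drawn. It does not hold CTSL, which rose, or DPEP1 and SERPINI1, which fell. The 4 that rose were WFDC2, MEP1B, CAPN6 and CPXM1, described above. CPE, carboxypeptidase E of prohormone processing (ENSBTAG00000016514, chromosome 17, 573369 to 721435, forward strand), was the most abundant of the peptidases that fell, with 88.6, 83.5, 115 and 84.4 CPM in secondary_GC and 18.4, 28.01, 19.8, 9.52 and 28.99 CPM in early_CC. Its log2 fold change was -2.14 ± 0.33, adjusted p = 0.00110. PCSK5, a proprotein convertase, went from 2.82 to 9.70 CPM in secondary_GC to 0.431 to 1.73 CPM in early_CC (-2.51 ± 0.58, adjusted p = 0.0196). The inhibitor TIMP2 of matrix metalloproteases (574, 358, 451 and 836 CPM against 264, 218, 132, 175 and 273 CPM; -1.35 ± 0.34, adjusted p = 0.0376) fell as well. So did CST6, a cystatin that blocks cysteine proteases (145 to 268 CPM in secondary_GC and 50.8 to 136 CPM in early_CC; -1.22 ± 0.27, adjusted p = 0.0153). TIMP3 and WFDC1, both inhibitors, were lower without overlap and called in the 9-library fit (-0.996 ± 0.17, adjusted p = 0.00391; -3.65 ± 0.71, adjusted p = 0.00790). CPE was called in all fits that left out a library, and PCSK5 was not without secondary_GC 2 or 3 or early_CC 3 or 4 (0.0566 to 0.0829). TIMP2 was not called without secondary_GC 1, 3 or 4 or early_CC 1, 2, 3 or 4 (0.0533 to 0.135), nor CST6 without secondary_GC 4 or early_CC 1, 3 or 4 (0.0515 to 0.0675). Without secondary_GC 2 and 3 together, none of the 31 rose and 1 fell.

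Of 22 tested genes of regulated secretion CADPS2 was the only call, and the list's median log2 fold change was -0.33. PCSK1, the convertase that works with CPE in secretory granules, was at 2.69 to 6.73 CPM in secondary_GC and 0.299 to 0.919 CPM in early_CC. This difference was called in the 9-library fit (-3.11 ± 0.48, adjusted p = 0.00215) and not with all libraries (adjusted p = 0.210). SYT1, a calcium sensor of exocytosis, overlapped between groups (1.06 to 7.79 and 0.171 to 1.39 CPM).

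IGFBP6 and IGFBP2 fell, the only calls among 11 tested genes of the insulin-like growth factor system, where 1.05% of all genes tested fell. IGFBP6, which binds insulin-like growth factors (ENSBTAG00000021467, chromosome 5, 26878956 to 26883908, reverse strand), had 119.8, 92.2, 83.9 and 122 CPM in secondary_GC and 23.1, 20.1, 25.02, 15.8 and 33.7 CPM in early_CC. The log2 fold change was -2.12 ± 0.52, adjusted p = 0.0327. IGFBP2 of the same family had 5.97, 5.199, 2.05 and 6.83 CPM and 0.441, 0.102, 0.257, 0.345 and 0.763 CPM. Its fall was steeper (-3.64 ± 0.90, adjusted p = 0.0332). The early_CC libraries were below all secondary_GC libraries for both, which for IGFBP2 was fixed by its choice as a large fall. IGFBP5 was at 13.2 to 19.99 CPM in secondary_GC and 2.71 to 9.92 CPM in early_CC. It was called in the 9-library fit (-1.90 ± 0.34, adjusted p = 0.00533) and the 21-library fit (adjusted p = 0.00216) only. The list's median log2 fold change was -0.98, and -0.18 without secondary_GC 2 and 3, when neither gene was called. The receptor IGF1R was at 3.40 to 9.60 and 7.43 to 13.1 CPM. FGFR1, a fibroblast growth factor receptor, fell from 6.02, 8.40, 3.83 and 10.1 CPM to 0.787, 1.73, 0.599, 0.0862 and 1.65 CPM (-2.85 ± 0.76, adjusted p = 0.0483). It was the 1 call among 22 tested genes of the KIT, FGF and other growth factor list. IGFBP6 was not called without secondary_GC 1, 2, 3 or 4 or early_CC 1, 2, 3 or 4 (0.0502 to 0.0881). IGFBP2 was lost without secondary_GC 2 or 4 or early_CC 1, 2, 3 or 4 (0.0737 to 0.0839) and FGFR1 without each of the 9 libraries in turn (0.0542 to 0.115).

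VCAM1 and CXCL12 were the calls of the immune and cell surface list. CXCL12, a chemokine that attracts cells bearing its receptor, had 4.49, 5.60, 6.52 and 8.65 CPM in secondary_GC and 0.598, 1.12, 0.513, 1.16 and 0.964 CPM in early_CC. It fell by the test of all 24 libraries (-2.83 ± 0.74, adjusted p = 0.0414), though not without secondary_GC 2, 3 or 4 or early_CC 1, 2, 3, 4 or 5 (0.0749 to 0.103). That receptor, CXCR4, had 45.4, 21.1, 27.5 and 27.7 CPM and 1.67, 3.62, 2.99, 2.11 and 6.14 CPM, without overlap. It was called in the 9-library fit (-3.22 ± 0.34, adjusted p = 2.8e-04) and not with all libraries (adjusted p = 0.0944). In the immune and cell surface list 2 of 21 tested members fell and none rose, with a median of -0.51. Of all genes tested 1.05% fell and 0.944% rose.

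Immediate early genes, which respond within minutes to growth signals or stress, had 21 of 25 tested members below 0 and a median log2 fold change of -0.93, against 0.014 for all genes tested. Leaving out single libraries moved this median between -1.03 and -0.85, and RLE scaling gave -0.999. Only IFRD1, a transcriptional co-regulator, was called with all 24 libraries (-2.34 ± 0.59, adjusted p = 0.0407). Its levels were 60.2, 522, 53.2 and 239 CPM in secondary_GC and 31.3, 43.6, 47.7, 44.5 and 44.3 CPM in early_CC. Secondary_GC 2 and 4 stood far above the other 7 libraries, and the change was -1.43 without secondary_GC 2. It was not called without secondary_GC 2 or 4 or early_CC 1, 2, 3, 4 or 5 (0.0777 to 0.244). In the 9-library fit 11 members were called lower and none higher, and in the 21-library fit 6 and none. Of all genes tested these fits called 4.34% and 4.76% lower. Among them EGR1, a zinc finger factor, had 1102 to 1769.9 CPM in secondary_GC and 365 to 771 CPM in early_CC (9-library fit -1.17 ± 0.20, adjusted p = 0.00395; not called in the 21-library fit, adjusted p = 0.582). ATF3, a stress-response factor, had 284 to 609.99 and 107 to 231 CPM (9-library fit -1.50 ± 0.23, adjusted p = 0.00215; adjusted p = 0.187 in the 21-library fit). FOSL2, an AP-1 subunit, had 2.34 to 7.69 and 0.241 to 0.813 CPM (9-library fit -2.98 ± 0.48, adjusted p = 0.00292). FOS itself, at 2255 to 5436 and 1336 to 2669 CPM, overlapped between the groups.

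ZFP36L1, a protein that binds AU-rich elements and speeds mRNA decay (ENSBTAG00000025434, chromosome 10, 80614620 to 80620778, reverse strand), fell from 71.4, 47.5, 95.2 and 53.8 CPM to 7.37, 12.2, 7.49, 2.67 and 17.1 CPM. The log2 fold change was -2.83 ± 0.54, adjusted p = 0.00750, and the gene was called in every fit that left out 1 library. The groups were far apart, with early_CC 4 the lowest and early_CC 5 the highest of its group. It was the 1 call among 13 tested decay factors and partners. Its relative ZFP36L2 overlapped at 75.6 to 142 and 62.7 to 113 CPM. SESN1, a stress-induced inhibitor of mTORC1 signalling (ENSBTAG00000003015, chromosome 9, 41069671 to 41183444, forward strand), fell from 9.67, 11.8, 10.3 and 13.2 CPM to 3.18, 4.13, 4.53, 4.31 and 3.77 CPM (-1.46 ± 0.27, adjusted p = 0.00402). It was the 1 call among 28 tested p53, stress and apoptosis genes, and this call too held without any single library. Without secondary_GC 2 and 3 together neither ZFP36L1 (adjusted p = 0.0717) nor SESN1 (0.0504) was called. Of 14 tested chaperones HSPH1 rose (32.4 to 83.5 CPM in secondary_GC and 84.4 to 236 CPM in early_CC; 1.55 ± 0.37, adjusted p = 0.0257). HSP90B1 of the endoplasmic reticulum fell, though the lowest secondary_GC and the highest early_CC library met (599 to 1448 CPM in secondary_GC and 458 to 599 CPM in early_CC; -0.90 ± 0.22, adjusted p = 0.0327). The first was not called without secondary_GC 2, 3 or 4 or early_CC 1, 2 or 4 (0.0510 to 0.109) and the second without secondary_GC 2 or 4 or early_CC 1, 2, 3, 4 or 5 (0.0517 to 0.1399).

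Targets of the mechanosensitive cofactors YAP and TEAD had a median log2 fold change of -0.85 over 21 tested members, 14 of them below 0, and of -0.55 without secondary_GC 2 and 3. F3, tissue factor, was the only one called, at 7.06, 18.2, 5.45 and 29.99 CPM in secondary_GC and 3.24, 1.48, 5.30, 2.41 and 2.25 CPM in early_CC. It fell (-2.31 ± 0.52, adjusted p = 0.0170), though not without secondary_GC 2 or 4 or early_CC 2 or 4 (0.0520 to 0.103). CCN1, a matricellular protein and standard reporter of this pathway, had 171, 442, 254 and 726 CPM in secondary_GC and 36.3, 59.1, 71.7, 61.7 and 74.4 CPM in early_CC. CCN2, another such reporter, had 16.7, 372, 83.5 and 196 CPM and 10.1, 9.90, 12.7, 14.995 and 7.11 CPM. For neither did the groups overlap, and both were called in the 9-library fit (-2.73 ± 0.36, adjusted p = 0.00125; -3.94 ± 0.69, adjusted p = 0.00812) and the 21-library fit, not with all 24. The secondary_GC libraries disagreed among themselves more than 10-fold for CCN2, with secondary_GC 2 and 4 the highest.

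Genes of contact with the oocyte are given next, beside the 1.99% of all genes tested that were called. Of 50 tested genes of filopodia and actin protrusions, the class from which transzonal projections are built, only RDX, the membrane-to-actin linker radixin, rose, from 56.2, 37.0, 53.9 and 45.6 CPM to 71.4, 70.7, 61.9, 70.1 and 73.6 CPM. The change was small (0.56 ± 0.15, adjusted p = 0.0457). It was not called in the 9-library fit (0.51 ± 0.16, adjusted p = 0.0745) nor without secondary_GC 2 or 4 or early_CC 1, 2, 3, 4 or 5 (0.0606 to 0.164). MYO10, the motor of filopodial tips, had 43.8, 86.1, 51.9 and 56.1 CPM in secondary_GC and 28.1, 83.5, 76.6, 34.9 and 49.9 CPM in early_CC. DAAM1, a formin that nucleates actin, had 18.5 to 42.0 and 17.6 to 27.4 CPM. The groups overlapped for both, and the direction of MYO10 differed between fits. FSCN1, the fascin that bundles filopodial actin, was lower without overlap at 9.28, 12.5, 13.8 and 10.3 CPM and 2.77, 2.50, 1.58, 1.21 and 3.81 CPM. It was called in the 9-library fit (-2.30 ± 0.33, adjusted p = 0.00150) and not with all libraries (adjusted p = 0.221). FMNL1, another formin, was higher without overlap (1.99 to 5.31 CPM in secondary_GC and 10.2 to 17.1 CPM in early_CC), with the same split between fits (9-library fit 1.86 ± 0.32, adjusted p = 0.00384).

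Junction genes differed by member. GJA1, the main gap junction protein between granulosa cells, overlapped at 343 to 592 and 363 to 606 CPM (0.13 ± 0.30, adjusted p = 0.881), as did the adherens junction cadherin CDH2 (145 to 248 and 170.4 to 331 CPM). CDH1, epithelial cadherin, was higher in early_CC without overlap (9.18, 5.40, 4.75 and 6.33 CPM against 18.1, 16.2, 20.1, 29.7 and 12.6 CPM), as was the cadherin CDH11 (3.20 to 5.63 CPM in secondary_GC and 6.33 to 20.5 CPM in early_CC). Both were called in the 9-library fit (1.59 ± 0.29, adjusted p = 0.00541; 1.57 ± 0.35, adjusted p = 0.0172) and not with all libraries. GJA4, the connexin that the oocyte uses for its gap junctions, was at 4.60 to 17.9 and 1.73 to 5.77 CPM with overlap (9-library fit -1.48 ± 0.41, adjusted p = 0.0417; all 24 libraries adjusted p = 0.504). KITLG, the granulosa ligand of the oocyte receptor KIT and a name that rests on a span match of 0.58, overlapped at 6.20 to 14.7 and 4.01 to 10.7 CPM. Of the cyclic GMP pathway that holds the oocyte in meiotic arrest, the receptor NPR2 overlapped at 5.60 to 9.90 and 6.85 to 11.04 CPM. Its ligand NPPC was at most 1.12 CPM in any of the 9 libraries. IMPDH1, which makes guanine nucleotides, fell from 28.4, 39.5, 21.3 and 22.6 CPM to 4.34, 14.6, 12.4, 13.7 and 11.1 CPM (-1.28 ± 0.31, adjusted p = 0.0251). IMPDH1 was not called without secondary_GC 2 or early_CC 1 or 5 (0.0535 to 0.122). SLC38A3, an amino acid transporter known from mouse cumulus cells, was too low to test, at 0 to 1.03 and 0 to 0.517 CPM.

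VCAN, versican, a large proteoglycan of the expanding cumulus matrix (ENSBTAG00000014906, chromosome 7, 83356440 to 83476139, forward strand), rose from 421, 302, 425 and 268 CPM to 836, 784, 799, 783 and 809.7 CPM. It rose by 1.21 ± 0.32, adjusted p = 0.0413 (log2). The 5 early_CC libraries lay close together and well above all of secondary_GC, and yet the call was lost without each of the 9 libraries in turn (0.0532 to 0.130). The expansion genes HAS2, PTX3 and PTGS2 were low in both groups, at most 0.630, 5.999 and 4.05 CPM. Of 9 tested expansion and matrix genes VCAN was the only call. No basement membrane gene was called of 20 tested. LAMB1, a laminin chain, was at 14.8 to 36.8 CPM in secondary_GC and 0.984 to 6.98 CPM in early_CC and was called in the 9-library fit (-2.49 ± 0.44, adjusted p = 0.00453).

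Of 32 tested cell cycle genes 30 had a log2 fold change above 0, with a median of 0.46, and none was called by edgeR with all 24 libraries. The 9-library fit called 4 higher and the 21-library fit 5, and neither called one lower. Of all genes tested these fits called 2.86% and 4.44% higher. Leaving out single libraries moved the median between 0.40 and 0.62, and RLE scaling left 29 above 0 with a median of 0.40. AURKA, the mitotic kinase aurora A, had the lowest adjusted p, at 59.6, 67.3, 49.8 and 35.6 CPM in secondary_GC and 126, 110.3, 124, 111 and 122 CPM in early_CC, without overlap (1.19 ± 0.33, adjusted p = 0.0543; 9-library fit 1.15 ± 0.19, adjusted p = 0.00338). CDKN2C, an inhibitor of the G1 kinases, was also higher without overlap (16.2 to 27.98 CPM in secondary_GC and 39.4 to 61.9 CPM in early_CC; 9-library fit 1.30 ± 0.21, adjusted p = 0.00338). So was the G1 cyclin CCND2 (247 to 306 CPM in secondary_GC and 414 to 544 CPM in early_CC; 9-library fit 0.79 ± 0.13, adjusted p = 0.00333). MKI67, a general proliferation marker, overlapped at 29.6 to 98.3 and 53.2 to 98.9 CPM.

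Cholesterol genes had a median of 0.39 over 25 tested members, 20 above 0 and none called. HMGCS1 and LSS, enzymes near the start and after the squalene step of the pathway, were called in the 9-library fit (0.90 ± 0.18, adjusted p = 0.00863; 0.98 ± 0.24, adjusted p = 0.0247). ABCA1, which exports cholesterol, went the other way, at 0.691, 7.40, 0.638 and 0.8286 CPM in secondary_GC and 0, 0, 0.0428, 0.129 and 0 CPM in early_CC. It was also called there (-5.93 ± 1.16, adjusted p = 0.00811) and not with all libraries (adjusted p = 0.0634). Glycolysis genes had a median of 0.21 over 24 tested members with none called. LDHA, which makes lactate, was at 234 to 727 and 806 to 1414 CPM without overlap (9-library fit 1.36 ± 0.29, adjusted p = 0.0125; not called in the 21-library fit, adjusted p = 0.123). HIF1A, the oxygen-regulated factor, was at 401 to 684 and 779 to 1149.7 CPM (0.78 ± 0.23, adjusted p = 0.0695; 9-library fit 0.73 ± 0.19, adjusted p = 0.0330), and no hypoxia gene of 15 tested was called.

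Of the developmental pathways, TCF7, a transcription factor at the end of the Wnt pathway (ENSBTAG00000001002, chromosome 7, 45768913 to 45800957, forward strand), rose from 17.7, 18.6, 15.7 and 12.7 CPM to 45.2, 36.1, 34.2, 38.3 and 33.3 CPM. The log2 fold change was 1.25 ± 0.23, adjusted p = 0.00465, and the call held in all fits that left out a library. It was the 1 call among 26 tested Wnt genes, and the pathway's feedback target AXIN2 overlapped at 10.7 to 23.4 and 14.1 to 24.9 CPM. IHH, the hedgehog ligand that granulosa cells send to theca, had 116, 176, 100.4 and 66.2 CPM and 666, 573, 899.8, 753 and 403 CPM, without overlap. It was not called with all libraries (2.56 ± 0.81, adjusted p = 0.101) and was in the 9-library fit (2.52 ± 0.30, adjusted p = 4.5e-04) and the 21-library fit, and with all 24 none of the 7 tested hedgehog genes was called. None of 15 tested Notch genes was called either. The target HEYL was at 18.3 to 32.9 and 3.81 to 11.6 CPM without overlap (9-library fit -1.73 ± 0.30, adjusted p = 0.00434).

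**Figure D5:**
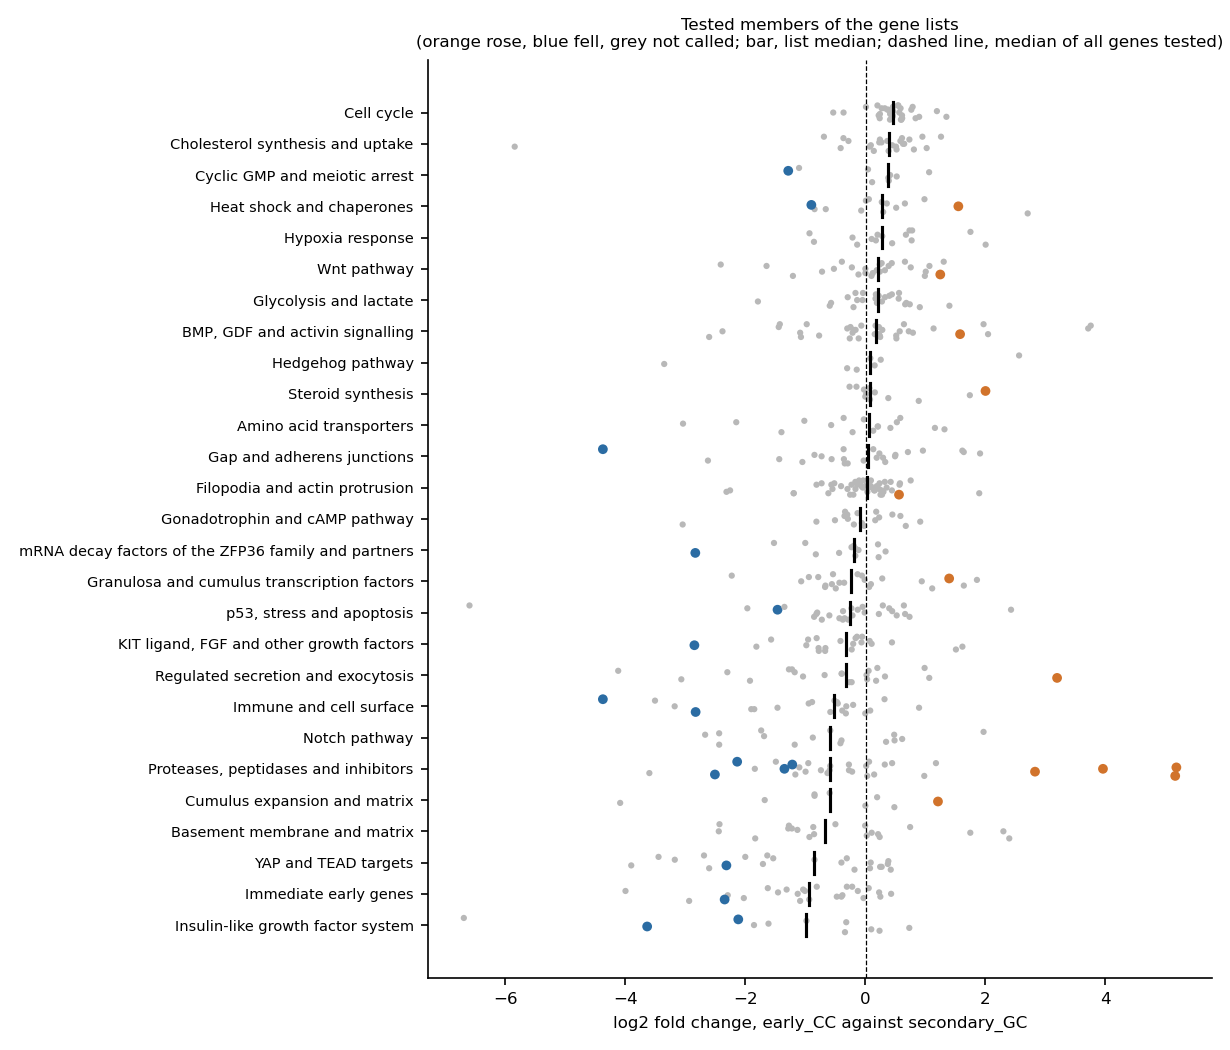
Log2 fold changes of early_CC over secondary_GC for the tested members of 27 gene lists, 1 point a gene, ordered by list median (bars). Orange points rose, blue points fell, grey points were not called and the dashed line is the median of all genes tested, 0.014. The cell cycle list has 30 of 32 members above 0 and the immediate early list 21 of 25 below 0; the lists were chosen with earlier results of these data known.

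List counts differed in the 21-library fit, which called 4.44% of all genes higher and 4.76% lower. It called 6 higher and 3 lower of 34 tested BMP, GDF and activin genes, 3 higher and none lower of 12 steroid genes and 6 higher and 2 lower of 25 cholesterol genes. Glycolysis and hypoxia genes each had 2 higher and 1 lower, of 24 and 15. Of proteases and inhibitors 4 were higher and 9 lower of 31, and of regulated secretion genes 2 and 4 of 22. Filopodia and actin genes had 2 higher and 4 lower of 49, junction genes 4 and 4 of 24, and basement membrane genes 1 and 4 of 19. Lower calls without higher ones were found for 4 of 10 insulin-like growth factor genes, 6 of 20 immune and cell surface genes, 5 of 19 YAP and TEAD targets, 3 of 13 decay factors and 2 of 15 Notch genes. KIT, FGF and other growth factor genes had 1 higher and 5 lower of 21, p53, stress and apoptosis genes 1 and 4 of 26, and Wnt genes 3 and 1 of 26. Granulosa and cumulus transcription factors had 2 higher and 2 lower of 21.

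MYH11, smooth muscle myosin heavy chain and a theca and stroma marker, fell from 127, 249, 145 and 139 CPM in secondary_GC to 38.2, 50.1, 40.9, 34.1 and 46.4 CPM in early_CC (-1.95 ± 0.51, adjusted p = 0.0458), the only call among 12 tested markers of that class. It was chosen after its values were seen. The class summed to 333 to 530 and 238 to 806 CPM in the 2 groups, ranges that overlap. LUM, a stromal proteoglycan of the same class, was higher in early_CC without overlap (20.7, 12.8, 21.1 and 14.5 CPM against 533, 48.3, 243, 151 and 80.8 CPM; 9-library fit 3.62 ± 0.67, adjusted p = 0.0102), with early_CC 1 the highest. The class sum holds both MYH11 and LUM, which differed in opposite directions, so nothing on the share of such cells is read from its overlap. KIT, an oocyte and theca receptor, overlapped at 1.80 to 11.8 and 7.57 to 19.99 CPM.

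Early_CC was set against early_MGC, the mural cells of the same stage, to ask for which genes the difference from secondary_GC is unlike in the 2 compartments. With a common baseline, the difference between both changes equals this contrast. It called 1871 of 14298 genes (13.1%), 958 higher (6.7%) and 913 lower (6.39%) in early_CC. Mitochondrial counts were 12.5% to 36.5% in early_MGC against 5.45% to 7.24% in early_CC, and their part in these differences was not tested. Of the 29 large rises and falls described, 19 differed between the compartments. They were chosen for large changes in the same 5 early_CC libraries, so nothing is read from that count or from its direction. SMOC2 was at 8.03 to 27.4 CPM in early_MGC, with a mean close to that of secondary_GC (16.7 ± 8.23 and 17.97 ± 7.55 CPM, SD, n = 5 and 4). It was higher in early_CC (log2 fold change over early_MGC 2.66 ± 0.38, adjusted p = 2.4e-04). MSMB was at 14.3 to 96.5 CPM in early_MGC, and early_CC lay below it (-4.91 ± 0.57, adjusted p = 1.8e-05). The same contrast gave 3.81 ± 0.70, adjusted p = 0.00138 for VNN2, 3.48 ± 0.65, adjusted p = 0.00128 for SLC22A7 and -6.11 ± 1.12, adjusted p = 0.00166 for VCAM1. Without early_CC 1 the value for VNN2 was 2.91, and without early_CC 3 that for SLC22A7 was 2.75.

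Outside these 29, ZFP36L1 (80.2 ± 23.8 CPM in early_MGC, SD, n = 5; -3.24 ± 0.54, adjusted p = 7.2e-04), CPE (64.2 ± 25.3 CPM; -1.74 ± 0.32, adjusted p = 0.00120), SESN1 (-1.42 ± 0.26, adjusted p = 0.00103) and HSD3B1 (11.5 ± 4.64 CPM; 2.43 ± 0.46, adjusted p = 0.00167) differed between the compartments. So did HSD17B1 (214 ± 113 CPM in early_MGC; 2.67 ± 0.71, adjusted p = 0.0168), IHH (84.8 ± 48.9 CPM; 2.85 ± 0.75, adjusted p = 0.0162), AURKA (1.37 ± 0.30, adjusted p = 0.00462), FMNL1 (3.59 ± 0.63, adjusted p = 9.0e-04) and LDHA (2.96 ± 0.64, adjusted p = 0.00462), all higher in early_CC. All of these genes were likewise chosen by calls, low p or values seen in the same 5 early_CC libraries. Nothing is read from their number or direction either. INHBA, at 69.5 ± 36.0 CPM in early_MGC, was not called with all 24 libraries (1.80 ± 0.73, adjusted p = 0.109). It was called without the 3 libraries that stood apart (log2 fold change 1.69, adjusted p = 0.0041), with the 2 groups alone (adjusted p = 0.0030) and by limma-voom with library weights (adjusted p = 0.0208). FST was not called with all 24 (0.79 ± 0.55, adjusted p = 0.370).

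For other genes the difference between the compartments did not pass the test or ran the other way. GREM1 was at 87.2 ± 30.1 CPM in early_MGC (SD, n = 5), above early_CC (-0.66 ± 0.22, adjusted p = 0.0498). This call was lost without any 1 of early_CC 2 to 5 or of early_MGC 1, 2, 3 or 5 (adjusted p = 0.0541 to 0.149). NR5A2 had 162 ± 22.2 CPM in early_MGC (0.28 ± 0.28, adjusted p = 0.554), GALNT13 51.2 ± 22.6 CPM (0.69 ± 0.31, adjusted p = 0.150) and TCF7 25.2 ± 8.29 CPM (0.49 ± 0.21, adjusted p = 0.134). GALNT13 was called without early_MGC 1 (1.01, adjusted p = 0.0346) and by limma-voom with library weights (0.61, adjusted p = 0.0461). Of the falls, PLTP stood at 0.889 ± 0.653 CPM in early_MGC (-0.63 ± 0.70, adjusted p = 0.595), IGFBP6 at 25.7 ± 3.76 CPM (-0.24 ± 0.48, adjusted p = 0.785), CXCL12 at 1.18 ± 0.968 CPM (-0.51 ± 0.69, adjusted p = 0.677) and TIMP2 at 231 ± 59.5 CPM (-0.21 ± 0.32, adjusted p = 0.713). Early_MGC against secondary_GC, which shares the 4 secondary_GC libraries with the main comparison and calls 9.1% of genes (5.01% higher and 4.08% lower), gave a log2 fold change of 2.24 ± 0.25, adjusted p = 1.6e-05 for GREM1 and 1.54 ± 0.35, adjusted p = 0.00837 for GALNT13. It gave -3.21 ± 0.74, adjusted p = 0.00946 for PLTP and -1.87 ± 0.51, adjusted p = 0.0267 for IGFBP6.

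Levels in late antral cumulus cells are set beside these from a comparison of late_CC with early_CC, which shares the 5 early_CC libraries and in which 45.2% of all genes were called (22.5% higher and 22.7% lower). Mitochondrial counts were 11.4% to 27.7% in late_CC, and late_CC 3 is given apart from the other 4 libraries. SMOC2 stood at 583 to 965 CPM in those 4 and 922 CPM in late_CC 3, above early_CC (2.93 ± 0.38, adjusted p = 3.0e-06). CADPS2 stood at 108 to 122 and 117 CPM (2.34 ± 0.42, adjusted p = 1.0e-04) and NR5A2 at 906 to 1178 and 519 CPM (2.1003 ± 0.29, adjusted p = 3.8e-06), both above early_CC as well. INHBA reached 4889.8 to 11334 CPM in the 4 libraries and 191 CPM in late_CC 3, which lay within the range of early_CC (4.71 ± 0.83, adjusted p = 1.1e-04). GREM1 was back below its secondary_GC level, at 5.32 to 9.18 and 9.21 CPM (-2.95 ± 0.24, adjusted p = 5.0e-09). CAPN6, at 0.564 to 5.40 and 0.692 CPM (-4.66 ± 0.62, adjusted p = 5.2e-06), SLC22A7, at 0 to 0.141 and 0.138 CPM (-7.21 ± 0.84, adjusted p = 5.6e-07), and TCF7, at 15.2 to 23.9 and 17.7 CPM (-1.03 ± 0.21, adjusted p = 4.0e-04), lay below early_CC. CPE was lower still, at 1.26 to 1.81 and 0.761 CPM (-3.92 ± 0.37, adjusted p = 3.7e-08), and CERS4 had 0 counts in all 5 late_CC libraries. ZFP36L1 stood at 34.2 to 133 and 46.9 CPM, above early_CC (2.70 ± 0.53, adjusted p = 2.9e-04). Each of these genes with a test was called in the same direction without the 3 libraries that stood apart.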

How the data were processed

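RNA of 24 samples was amplified to cDNA with a low-input kit and sequenced. The deposited table holds raw counts of reads per Ensembl gene, made by the authors with featureCounts 2.0.0 over exons of the Ensembl release 105 annotation of ARS-UCD1.2, without strand or multi-mapping options, per the file headers. Read trimming with fastp 0.20.0, alignment with HISAT2 2.1.0 and SAMtools 1.10 are named in the submitters' processing notes, which also list the build bosTau9. A column of reads assigned to no sample (41567882 counts, 8.3% of the counts in the table) was left out.

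Without strand, reads of overlapping or antisense genes cannot be told apart, and reads of gene families may be misassigned. Total counts were 8379801 to 31762400 per library, and 3 counts over a group equal 0.0402 CPM in secondary_GC and 0.0244 CPM in early_CC, a limit that covers counting error only. No pair of libraries within either group agreed within sampling noise (lowest chi-square per degree of freedom 30.9). Symbols were assigned by gene position from the RefSeq annotation of ARS-UCD2.0: 20455 of 27607 genes received one, among them 10805 (88.4%) of 12219 genes at 1 CPM or more. After shifting all positions by 1000000 bases 1039 did.

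All 24 libraries were fitted with edgeR 4.0.16 (R 4.3.3) by quasi-likelihood with TMM scaling, filterByExpr by group and robust dispersion, and p-values were adjusted over 14298 genes by the Benjamini-Hochberg method, with calls under 0.05. SE is the log2 fold change over the root of F. The edgeR fit was tested on simulated data for early_CC against secondary_GC only, and the alternatives listed next were not. The simulation gave all libraries the same means apart from the genes set to change, with no library that stands apart. Alternatives were RLE scaling, no filter, a mean of at least 10 CPM, DESeq2 1.42.0, limma-voom (limma 3.58.1) with and without library weights, the groups alone, without 3 libraries that stand apart, a replicate block and each library left out. Leaving out secondary_GC 2 and 3, and the block by column number, were added after the data were seen. Tables and figures used Python 3.11.15, pandas 2.3.3, numpy 2.4.6 and matplotlib 3.10.9.

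The comparison, gene lists and named genes were chosen with earlier results of these data known. Genes named are the 15 largest called rises and 15 largest called falls with a symbol, a mean of at least 5 CPM in the higher group and groups that do not overlap; every called member of 27 gene lists; 17 genes fixed by name (FSHR, FOXL2, AMH, INHA, INHBA, CYP19A1, GJA1, GJA4, CDH1, CDH2, MYO10, FSCN1, DAAM1, KITLG, NPR2, NPPC, SLC38A3); and the 2 genes of lowest p in each list without a call. All other genes were chosen after their values were seen. One of the named falls is not reported here. Of the 285 called genes 42 have no symbol and are not named.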

Additional observations from a re-analysis of the deposited data

Results flagged for a closer look

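In 14 of 168 groups of libraries looked at (84 genes in 2 groups) 1 library lay far from the rest of its group, 7 of them in each group, where chance gives about 1 in 20. Among genes that rose, VNN2 was at 42.7 CPM in early_CC 1, SLC22A7 at 21.7 CPM in early_CC 3, GALNT13 at 117 CPM in early_CC 1 and CAPN6 at 11.2 CPM in secondary_GC 1, each the highest of its group. Among genes that fell, ARHGDIB was highest in early_CC 2 at 0.459 CPM, DUSP5 in secondary_GC 4 at 70.3 CPM and CPE in secondary_GC 3 at 115 CPM, while IFRD1 was lowest in early_CC 1 at 31.3 CPM. The cyclic GMP genes NPR2 and NPPC had a far value in early_CC 4 (6.85 CPM, the lowest) and early_CC 5 (1.12 CPM, the highest). Secondary_GC 2 held 4 of the 14, with ABCA1, the cholesterol exporter, at 7.40 CPM, DLL4, a Notch ligand, at 22.4 CPM and SLC7A11, the cystine transporter, at 21.2 CPM as the highest values and HIF1A at 401 CPM as the lowest.

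The change from secondary_GC differed between cumulus and mural cells for 19 of the 29 large rises and falls described, by edgeR's contrast of early_CC with early_MGC. These genes were chosen for large changes in the same early_CC libraries, and the contrast called 13.1% of all genes tested. Nothing is read from the count or from its direction. For genes that rose, the change to early_CC exceeded that to early_MGC on the log2 scale by 4.05 for WFDC2, 3.53 for MEP1B, 3.81 for VNN2, 2.14 for CAPN6, 3.48 for SLC22A7, 2.05 for CADPS2, 2.66 for SMOC2, 2.29 for CTSL, 2.45 for KCNJ8 and 1.73 for MEIS2. For genes that fell, the difference was -5.56 for ARHGDIB, -3.63 for CERS4, -6.11 for VCAM1, -3.10 for SERPINI1, -3.85 for IGFBP2, -4.91 for MSMB, -2.62 for TFF2, -1.40 for GDAP1L1 and -2.07 for PRKCZ. The call ended without any 1 of early_CC 1, 3, 4 or 5 or early_MGC 1, 2, 3 or 5 for MEIS2 (adjusted p = 0.0504 to 0.105) and without early_CC 1, 3, 4 or 5 or early_MGC 2, 4 or 5 for GDAP1L1 (0.0639 to 0.0973). Limma-voom without library weights did not call MEP1B, CTSL or KCNJ8 (adjusted p = 0.0662 to 0.133). MEIS2 was not called with RLE scaling (adjusted p = 0.0510) or without a filter (0.0553). GDAP1L1 was not called without a filter (0.0602) or by limma-voom with library weights (0.0583). Taken as a fold, the difference moved by over 1.5 times on leaving out single libraries for some genes, given here with log2 values in brackets. They were WFDC2 (5.47 without early_MGC 1), MEP1B (4.53 without early_MGC 1), VNN2 (2.91 without early_CC 1), SLC22A7 (2.75 without early_CC 3), CADPS2 (2.78 without early_MGC 1), MEIS2 (2.46 without early_MGC 4), ARHGDIB (-7.54 without early_CC 2), CERS4 (-4.54 without early_CC 5) and TFF2 (-3.23 without early_CC 2).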

How the results depend on the processing

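For early_CC against secondary_GC, 285 genes were called with all libraries, 284 with RLE scaling and 217 without a filter. The other settings gave 148 (mean of at least 10 CPM), 722 (DESeq2), 603 (limma-voom), 799 (limma-voom with library weights), 964 (the 2 groups alone), 1304 (without the 3 libraries that stand apart) and 51 (without secondary_GC 2 and 3). Leaving out 1 library gave 150 to 358. For early_CC against early_MGC the 1871 calls became 3261 with library weights and 3035 with the 2 groups alone, and 1222 to 1761 without 1 library. The cause of these differences was not tested.

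Some genes with small differences changed direction. From secondary_GC to early_CC, MYO10 was at 0.037 (log2) with library weights and 0.20 without secondary_GC 2 and 3, where DAAM1 was at 0.26 and KITLG at 0.13. Without 1 library the ranges were -0.46 to 0.22 for FOXL2, -0.29 to 0.14 for MYO10, -0.38 to 0.068 for DAAM1 and -0.30 to 0.22 for KITLG. Between early_CC and early_MGC, GJA4 was at 0.027 without a filter, 0.10 with library weights and 0.21 without the 3 libraries that stand apart. Without 1 library it was -0.23 to 0.21, F3 -0.46 to 0.039, HSPH1 -0.48 to 0.0021 and CDH2 -0.17 to 0.074.

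Among named genes called from secondary_GC to early_CC, RLE scaling ended the calls of MEIS2, RHBG, VCAN and RDX, and the filter at 10 CPM those of VCAN and RDX. No filter ended those of TMEM156, CTSL, KCNJ8, MEIS2, RHBG, VCAM1, IGFBP2, HSD3B1, RDX, TIMP2, IGFBP6, IFRD1, HSP90B1 and FGFR1 (adjusted p = 0.0526 to 0.0895). Limma-voom ended those of MEP1B, VNN2, TMEM156, CTSL, KCNJ8, MEIS2, RHBG and IFRD1, and with library weights those of WFDC2, MEP1B, VNN2, TMEM156, CTSL, KCNJ8, MEIS2, IFRD1 and HSP90B1. The 9 libraries alone ended that of RDX, while DESeq2 (48 of the 49 genes with an adjusted p) and the fit without the 3 libraries that stand apart ended none. Without secondary_GC 2 and 3 together 15 of 49 such genes were called: CADPS2, SMOC2, GALNT13, GREM1, NR5A2, TCF7, ARHGDIB, CERS4, SERPINI1, MSMB, TFF2, GDAP1L1, DUSP5, DPEP1 and CPE. For the other 34 the adjusted p was 0.0504 to 0.362, and each kept its direction.

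The labels pair no secondary_GC library with an early_CC library, since titles run 1 to 4 while the columns carry other numbers. A replicate block on the column numbers of 4 pairs, added after the data were seen, called 1017 genes, against 600 for the same 8 libraries without the block, with correlations of deviations within a pair of 0.018 to 0.228. For early_CC and early_MGC the replicate block called 3405 genes (among them INHBA, adjusted p = 5.3e-05, and GALNT13, adjusted p = 0.0037), with correlations of -0.105 to 0.242, and 2 of 5 libraries correlated best with their own number. The numbers were not taken to pair the samples.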
